A study of Arabidopsis thaliana with 24 samples.

Results

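The genes described are 7 of the 29 Aux/IAA loci of Arabidopsis thaliana, out of 32833 loci in the count tables. They are the 4 genes of the clade that holds IAA14, namely IAA7 (AT3G23050), IAA14 (AT4G14550), IAA16 (AT3G04730) and IAA17 (AT1G04250), and the 3 genes of the clade that holds IAA9, namely IAA8 (AT2G22670), IAA9 (AT5G65670) and IAA27 (AT4G29080). They are defined by a list of locus identifiers, a rule that uses no measured value, although the set was proposed with earlier results of these data known. All 7 passed the filter on low counts, and their counts ranged from 294 to 63377 reads per library.

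Transcripts were counted by RNA sequencing in 24 libraries of root tissue, 3 in each of 8 groups. Seedlings 7 d old were placed on 10 µM NPA, an inhibitor of polar auxin transport, for 24 h. They then spent a further 24 h on NPA with either 10 µM estradiol or the solvent DMSO. After that they were moved to 10 µM of the auxin IAA, with estradiol or solvent as before, or were kept where they were, and roots were taken 6 h later. Each of these 4 treatments was given to Col-0, the wild type, and to a line labelled UB10pro_amiR-TOR, called amiR-TOR here. That line carries an estradiol-inducible artificial microRNA against TOR, a protein kinase that couples growth to nutrient and energy supply. The IAA plates as described list no NPA, so adding IAA and removing NPA cannot be told apart. Each library pooled about 200 root segments. The labels do not say whether the 3 libraries of a group came from separate cultures, nor how many independent transgenic lines were used, so p-values measure the spread between these libraries, which may be technical.

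Aux/IAA proteins are short-lived repressors of auxin signalling. They bind auxin response factors (ARFs) on the promoters of auxin-responsive genes and recruit co-repressors of the TOPLESS family. Auxin acts as a molecular glue between the F-box receptors TIR1/AFB and a short degron in the Aux/IAA protein, which is then ubiquitinated and degraded, and the ARFs are released. Many Aux/IAA genes are themselves targets of the ARFs, so transcript levels and protein levels of an Aux/IAA can move in opposite directions, and only transcripts were measured here. In the root, a stabilised form of IAA14 (the solitary-root mutant) blocks lateral root initiation by holding back ARF7 and ARF19. Stabilised forms of IAA7 (axr2) and IAA17 (axr3) disturb root gravitropism, and a stabilised form of IAA16 lowers the response to auxin.

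The stretch of each gene that encodes the degron is shown because all 7 proteins are recognised through it. Sequences are from RefSeq, build TAIR10.1, read 5′ to 3′ on the gene's strand, and capitals mark the match to the core. The core was searched as codons for glycine, tryptophan, proline and proline, in that order without gaps, followed by any codon with T in its middle position.
IAA7 (chr3:8195565-8195606, plus strand): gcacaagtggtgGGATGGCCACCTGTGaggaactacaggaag
IAA14 (chr4:8349469-8349510, minus strand): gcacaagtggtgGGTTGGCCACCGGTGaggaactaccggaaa
IAA16 (chr3:1289721-1289762, minus strand): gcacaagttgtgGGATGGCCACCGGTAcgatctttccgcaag
IAA17 (chr1:1136935-1136976, plus strand): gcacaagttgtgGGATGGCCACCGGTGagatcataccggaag
IAA8 (chr2:9637722-9637763, plus strand): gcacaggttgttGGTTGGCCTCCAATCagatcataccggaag
IAA9 (chr5:26255101-26255142, plus strand): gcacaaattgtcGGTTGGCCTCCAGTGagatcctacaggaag
IAA27 (chr4:14324645-14324686, minus strand): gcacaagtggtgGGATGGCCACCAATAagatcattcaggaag
All 7 genes held the core 1 time each, in an exon that began 1 base before the printed stretch. Of the 29 Aux/IAA loci 23 held it in their coding sequence, and of 27444 loci with a coding sequence 25 did, or 0.0911%. Over the 42 bases printed, IAA7 and IAA14 shared 38 and IAA8 and IAA9 shared 35. Over whole coding sequences, identity was between 68.0% and 82.5% for the 9 pairs within a clade and between 67.9% and 73.0% for the 12 pairs across the clades. The closest pair was IAA7 and IAA14. Their transcripts shared a run of 41 bases, the longest between any 2 of the 7 genes, so reads lying wholly within that run could come from either gene.

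The knock-down was visible in the target gene. TOR averaged 27.02 ± 5.81 CPM (counts scaled to a common library size; SD, n = 3) on NPA and 26.4 ± 1.70 CPM on IAA in the amiR-TOR line with estradiol, against group means between 56.9 and 70.6 CPM in the other 6 groups. Gene counts per library lay between 8589833 and 40494513. In 5 libraries (Col-0 on NPA replicate 1, Col-0 on IAA replicate 1, Col-0 on IAA with estradiol replicates 2 and 3, and amiR-TOR on IAA with estradiol replicate 1) between 25.8% and 47.6% of reads were unmapped, against at most 12.05% in the other 19, and called results that change without these 5 are given with both values. Leaving them out keeps only 1 library in the group of Col-0 given both IAA and estradiol, and that library is then assumed to vary like those of other groups. All 8 root marker genes were detected in every library, and their summed level lay between 109 and 244 CPM.

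IAA rather than NPA went with the widest differences of IAA14, IAA9, IAA8, IAA16 and IAA17. IAA27 and IAA7 differed most between the genotypes with estradiol on IAA. There IAA27 was 2.05-fold lower in amiR-TOR, against at most 1.69-fold lower with IAA. IAA7 was 1.44-fold higher there, against at most 1.295-fold higher with IAA. For IAA against NPA in Col-0 without estradiol, all 7 passed the test, 5 higher and 2 lower. Of all 21290 tested loci 63.3% passed (31.3% higher and 32% lower). A call in this comparison was thus the more frequent outcome for any locus. The median log2 fold change was 0.54 over the 7 genes and -0.04 over all tested loci. IAA14, IAA9 and IAA8 rose in each of the 4 combinations of genotype and estradiol. IAA16 and IAA27 fell, each in 3 of the 4. IAA7 passed in 1 of the 4 and IAA17 in 2, all in Col-0.

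IAA14, the repressor of lateral root initiation, was, per kb of exon, the lowest of the 7 in all 4 NPA groups. It stood at 18.5, 16.7 and 17.4 CPM in the 3 Col-0 libraries on NPA and at 91.6, 79.7 and 90.8 CPM on IAA. In the amiR-TOR line without estradiol, the libraries stood at 21.3, 22.8 and 18.2 CPM on NPA and at 115, 109.7 and 129.5 CPM on IAA. Every IAA library of either genotype was above every NPA library. The log2 fold change in Col-0 was 2.32 ± 0.13 (SE, 95% interval 2.05 to 2.58, edgeR adjusted p = 4.02e-13), a 4.98-fold rise. It was 2.14 in Col-0 with estradiol, 2.504 in amiR-TOR and 2.76 in amiR-TOR with estradiol, all called.

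IAA9 was, per kb of exon, the most abundant of the 7 transcripts in all 4 IAA groups. In tomato the loss of its counterpart turns compound leaves simple and lets fruit set without pollination. Its level was 448, 404 and 424 CPM in Col-0 on NPA and 2003, 2079 and 1875 CPM on IAA. In amiR-TOR with estradiol it was 401, 351 and 404 CPM on NPA and 1458, 1300.4 and 1212 CPM on IAA. The groups on IAA did not overlap those on NPA. The log2 fold change was 2.22 ± 0.12 in Col-0 (adjusted p = 2.65e-13), 2.11 in Col-0 with estradiol, 1.91 in amiR-TOR and 1.78 in amiR-TOR with estradiol, all 4 called by edgeR.

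IAA8, of the same clade as IAA9, rose with smaller fold changes. It stood at 148, 129.9 and 147 CPM in Col-0 on NPA and at 386, 318 and 357 CPM on IAA, with no overlap. Its log2 fold change was 1.32 ± 0.09 in Col-0 (edgeR adjusted p = 1.32e-11) and 1.00, 1.196 and 0.97 in Col-0 with estradiol, amiR-TOR and amiR-TOR with estradiol. Across the 24 libraries, log2(CPM + 1) of IAA8 and IAA9 had a Pearson r of 0.98, IAA14 and IAA9 of 0.93 and IAA14 and IAA8 of 0.91. These r describe libraries that share the step between NPA and IAA, so they carry no test.

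**Figure D1:**
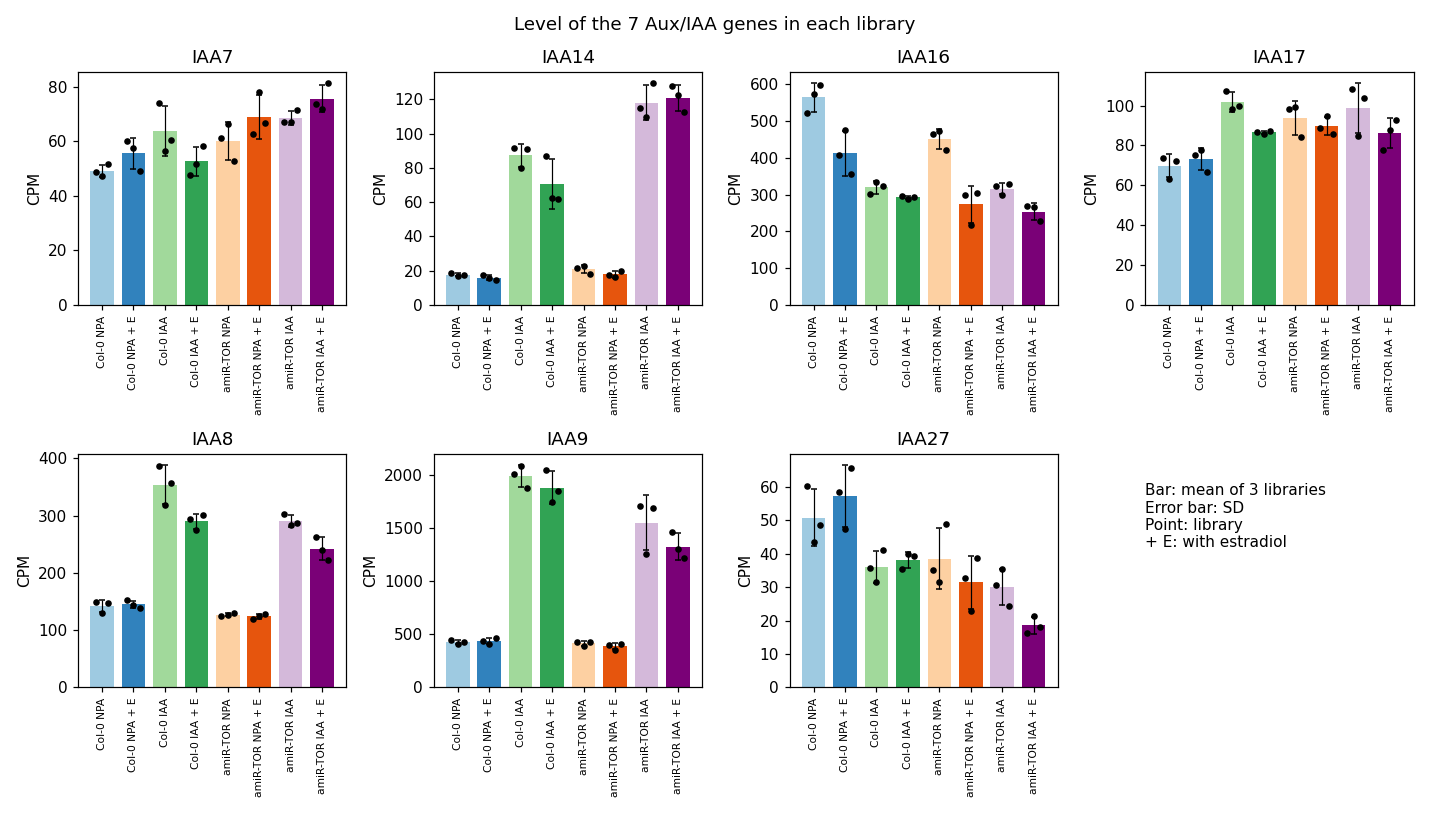
Level of each gene in CPM (vertical axis, starting at 0 and scaled to each gene) in the 8 groups (horizontal axis); bars are means of 3 libraries, error bars SD and points libraries, and + E stands for estradiol. IAA14, IAA8 and IAA9 stand higher in all 4 IAA groups than in any NPA group, and IAA16 is highest in Col-0 on NPA at a mean of 565 CPM.

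IAA16 went the other way. Per kb of exon it was the most abundant of the 7 in Col-0 on NPA. It stood there at 523, 573 and 599.5 CPM, and at 302, 336 and 323 CPM on IAA. The log2 fold change was -0.82 ± 0.12 in Col-0 (edgeR adjusted p = 3.13e-06), and it fell also in Col-0 with estradiol (-0.50) and in amiR-TOR (-0.51). In amiR-TOR with estradiol the NPA libraries were already at 300.2, 216 and 305 CPM, the IAA libraries were at 268, 267 and 228 CPM, and the 2 groups overlapped (log2 fold change -0.11, 95% interval -0.36 to 0.14, adjusted p = 0.511).

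IAA27, also known as phytochrome-associated protein 2, had the widest spread within a group among the 7, with a coefficient of variation of up to 25.3%. It stood at 60.2, 43.7 and 48.8 CPM in Col-0 on NPA and at 35.7, 31.5 and 41.1 CPM on IAA. Its log2 fold change was -0.49 in Col-0 (edgeR adjusted p = 0.0277), -0.58 in Col-0 with estradiol (0.0108), -0.37 in amiR-TOR (0.117, not called) and -0.75 in amiR-TOR with estradiol (0.00329). Without the 5 libraries with many unmapped reads the 2 calls in Col-0 were lost, at -0.36 (adjusted p = 0.236) without estradiol and -0.70 (0.0716) with it. The call in Col-0 without estradiol was also lost without replicate 1 or 2 on IAA or replicate 1 on NPA (adjusted p = 0.0660, 0.112 and 0.145), and the call with estradiol without replicate 3 on NPA (0.0586).

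IAA7 and IAA17, the genes of the axr2 and axr3 mutants, stayed within a narrow range, from 47.3 to 81.3 CPM and from 63.3 to 108 CPM over all 24 libraries. IAA17 stood at 73.8, 63.3 and 72.4 CPM in Col-0 on NPA and at 107, 98.1 and 99.9 CPM on IAA, and rose with a log2 fold change of 0.54 ± 0.10 (edgeR adjusted p = 5.05e-05). IAA7 stood at 48.6, 47.3 and 51.5 CPM on NPA and at 74.1, 56.3 and 60.6 CPM on IAA, with a log2 fold change of 0.37 ± 0.11 (adjusted p = 0.00676). The highest of these libraries, replicate 1 on IAA, is also one with many unmapped reads, and without it the value for IAA7 was 0.25 (adjusted p = 0.0681), and 0.22 (0.144) without all 5 such libraries. With estradiol in Col-0, IAA17 was called at 0.24 (adjusted p = 0.0371), but 5 of the 6 fits with 1 library fewer ended that call, all but the one without replicate 2 on NPA, and it stood at 0.25 (0.142) without the 5 libraries with many unmapped reads. In the amiR-TOR line neither gene was called with or without estradiol.

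**Figure D2:**
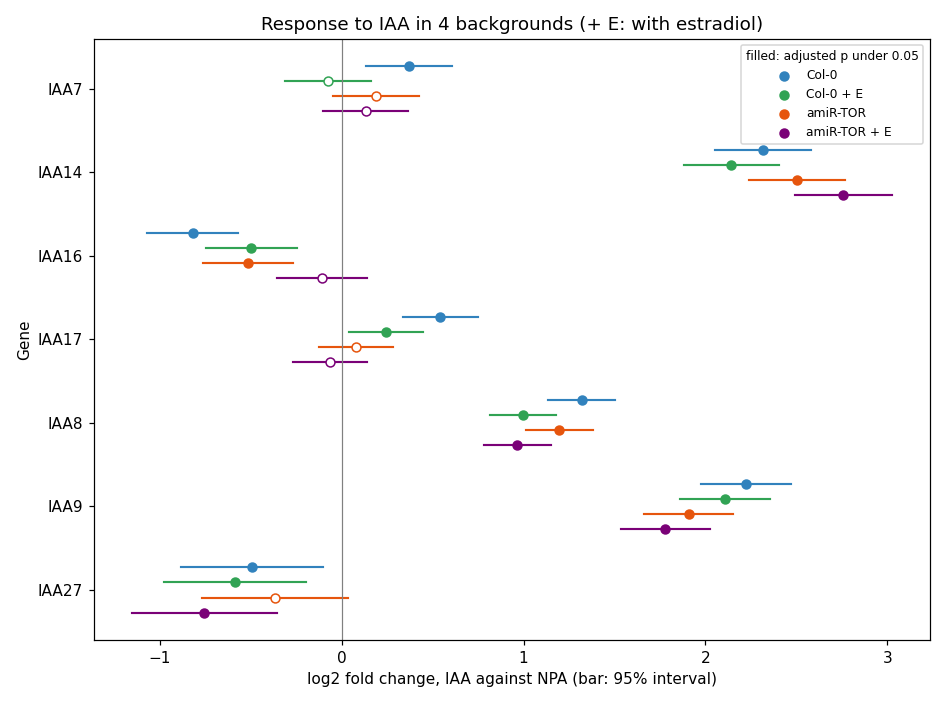
Log2 fold change of IAA against NPA (horizontal axis) for each gene (vertical axis) in Col-0 and amiR-TOR without and with estradiol; bars are 95% intervals and filled points have an adjusted p under 0.05. IAA14, IAA9 and IAA8 lie to the right of 0 in all 4 cases, from 0.97 to 2.76, and IAA16 and IAA27 lie to the left.

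The other 3 combinations gave fewer calls. With estradiol in Col-0, 6 of the 7 passed, 4 higher and 2 lower, where 59.3% of all tested loci did (29.9% higher and 29.3% lower). Without estradiol, amiR-TOR had 4 of 7 pass, 3 higher and 1 lower, where 52.8% of loci did (29.3% higher and 23.5% lower). With estradiol it was again 3 higher and 1 lower, where 39.2% of loci passed (20.6% higher and 18.6% lower). Shoot marker genes, listed to look for RNA from other tissue, moved with these groups. In Col-0 without estradiol 5 of 6 were lower on IAA and 0 higher, among them LHCB2.1 (log2 fold change -3.78) and PSAD-1 (-2.52), both of the photosynthetic apparatus. In Col-0 with estradiol it was again 5 lower and 0 higher, in amiR-TOR 2 lower and 2 higher (median log2 fold change -0.61), and in amiR-TOR with estradiol 4 lower and 0 higher. Of 8 root markers, 3 were lower in Col-0 without estradiol, among them COBL9 (-3.52) and APL (-0.92), and 1 was higher. In Col-0 with estradiol 5 root markers were lower and 0 higher. For amiR-TOR it was 3 lower and 2 higher without estradiol, and 3 lower and 0 higher with it. The summed level of the 6 shoot markers was 139 to 188 CPM in Col-0 on NPA, 27.8 to 48.5 CPM in Col-0 on IAA, 131 to 146 CPM in amiR-TOR on NPA, 45.1 to 85.0 CPM in amiR-TOR on IAA, 22.8 to 59.2 CPM in amiR-TOR on NPA with estradiol and 10.5 to 16.9 CPM in amiR-TOR on IAA with estradiol. For Col-0 with estradiol the summed level was 59.7 to 133 CPM on NPA and 19.1 to 37.0 CPM on IAA. In both amiR-TOR groups with estradiol 1 of the 6 had no count in at least 1 library, and the part of such RNA in the results was not tested. In pooled root segments, fewer cells of a type and less RNA per cell cannot be told apart.

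Levels can be compared between genes only per length, and for this CPM were divided by the length of the exons in TAIR10.1. On that scale the 7 genes summed to 670 ± 21.9 CPM per kb (SD, n = 3) in Col-0 on NPA and to 1440.5 ± 40.2 on IAA. IAA16 held 41.7% ± 2.89 of the sum on NPA and IAA9 29.7% ± 1.29. On IAA, IAA9 held 64.4% ± 1.90 and IAA16 10.99% ± 0.716. IAA9 thus went from rank 2 of the 7 to rank 1. IAA16 went from rank 1 to rank 3, closely behind IAA8 at 11.9% ± 1.19. In each of the other IAA groups IAA16 held rank 2 and IAA8 rank 3. In Col-0 without estradiol, IAA14 moved from the lowest of the 7, at 1.39% of the sum, to the fifth, at 3.22%. The sum over the IAA14 clade was 367 ± 19.0 CPM per kb on NPA and 315 ± 2.86 on IAA, and that over the IAA9 clade 303 ± 20.7 and 1125 ± 40.2. In amiR-TOR with estradiol the whole sum was 511 ± 38.0 on NPA and 1044 ± 72.8 on IAA, the lowest of the 4 NPA groups and of the 4 IAA groups.

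**Figure D3:**
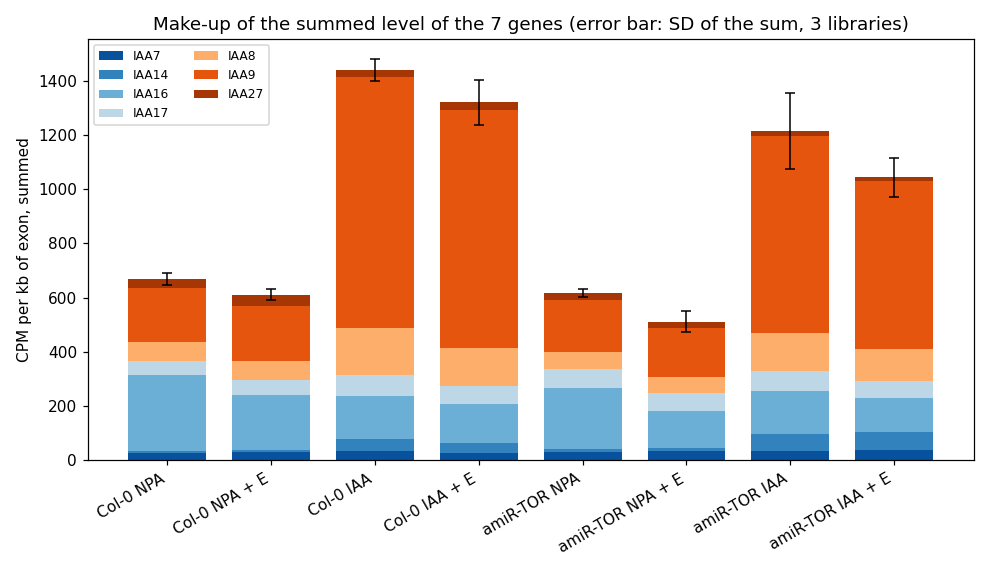
Summed level of the 7 genes in CPM per kb of exon (vertical axis) by group (horizontal axis), stacked by gene with the IAA14 clade in blue and the IAA9 clade in orange; error bars are the SD of the sum over 3 libraries. The sum in Col-0 goes from 670 on NPA to 1440.5 on IAA, and most of the height added is that of IAA9.

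The question of the line and of estradiol was asked of the same genes. Estradiol alone, in Col-0 on NPA, lowered 1 of the 7, IAA16, where 21.7% of all tested loci passed (9.3% lower). The libraries stood at 407, 476 and 355 CPM with estradiol against 523, 573 and 599.5 CPM without, and did not overlap (log2 fold change -0.45 ± 0.12, edgeR adjusted p = 0.0103). The call was lost without replicate 3 of either group (adjusted p = 0.0569 and 0.0808). In this comparison 1 of 6 shoot markers was lower and 0 higher, and 2 of 8 root markers were higher and 0 lower. The summed shoot level was 139 to 188 CPM without and 59.7 to 133 CPM with estradiol. Its part in the IAA16 value was not tested. In Col-0 on IAA none of the 7 passed with edgeR, where 1.02% of loci did. There 4 of the 7 had an unadjusted p under 0.05, and DESeq2 called 1, IAA8 at -0.30 (adjusted p = 0.0190). IAA14 in this comparison stood at 87.1, 62.7 and 61.6 CPM with estradiol, and the 2 lower libraries are those with many unmapped reads. Without replicate 1 of that group, the fold change was -0.49 and was called (edgeR adjusted p = 0.0141), against -0.31 (0.251) with all libraries. Without the 5 libraries with many unmapped reads it was 0.04 (0.996), so the direction turned with the libraries kept.

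In the amiR-TOR line, where estradiol also induces the microRNA, estradiol on NPA again lowered only IAA16 of the 7, where 33% of loci passed (13% lower). IAA16 stood at 464, 472 and 421 CPM without and at 300.2, 216 and 305 CPM with estradiol (log2 fold change -0.72 ± 0.12, edgeR adjusted p = 0.000109). Here 2 of 6 shoot markers were lower and 0 higher, and 3 of 8 root markers were higher and 0 lower. The summed shoot level was 131 to 146 CPM without and 22.8 to 59.2 CPM with estradiol. Its part in the IAA16 value was not tested. The effect of estradiol on IAA16 on NPA differed between the genotypes by -0.27 (95% interval -0.62 to 0.08, adjusted p = 0.446). On IAA, estradiol lowered 2 of the 7, where 18.9% of loci passed (9.9% lower). IAA27 stood at 30.5, 35.4 and 24.4 CPM without and at 16.4, 21.4 and 18.1 CPM with estradiol, without overlap (log2 fold change -0.68 ± 0.20, adjusted p = 0.0179), and IAA8 changed by -0.26 ± 0.09 (adjusted p = 0.0383). Leaving out single libraries ended the call of IAA8 in 5 of 6 fits, all but that without replicate 1 with estradiol, and that of IAA27 in 4 of 6, those without replicate 1 or 2 on solvent or replicate 1 or 3 with estradiol. Without the 5 libraries with many unmapped reads IAA27 stood at -0.60 (adjusted p = 0.0951). The shoot markers moved in the same comparison, 5 of 6 lower with a median log2 fold change of -2.70 and a summed level of 45.1 to 85.0 CPM without against 10.5 to 16.9 CPM with estradiol, and their part in the values of IAA27 and IAA8 was not tested.

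**Figure D4:**
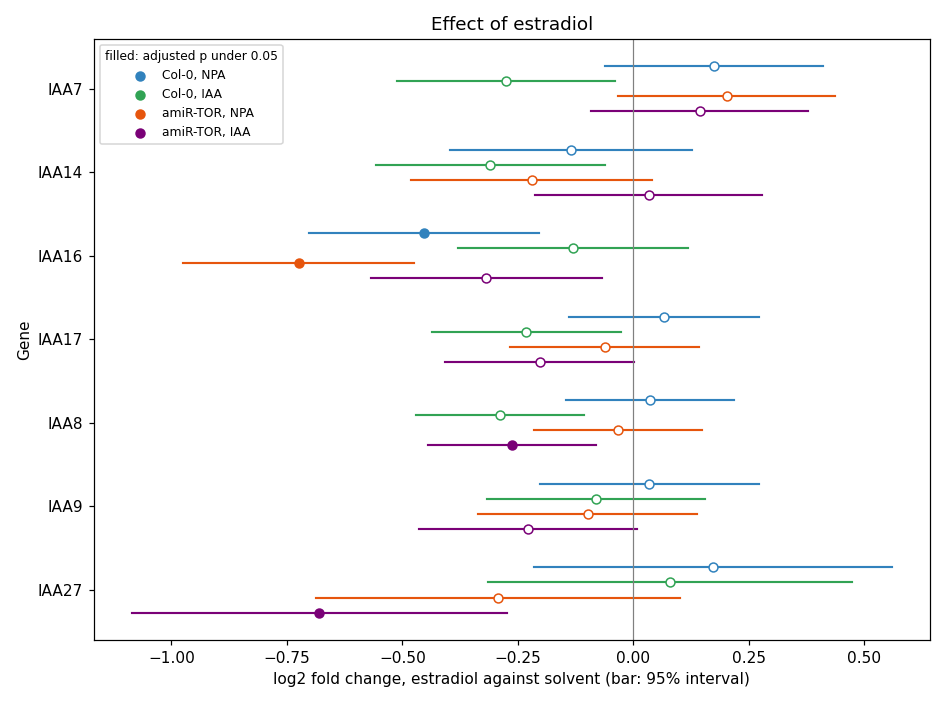
Log2 fold change of estradiol against solvent (horizontal axis) for each gene (vertical axis) in Col-0 and amiR-TOR on NPA and on IAA; bars are 95% intervals and filled points have an adjusted p under 0.05. The 4 filled points are IAA16 on NPA in both genotypes, at -0.45 and -0.72, and IAA8 and IAA27 in amiR-TOR on IAA.

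Between the genotypes without estradiol, where the microRNA was not induced, IAA17 was higher in amiR-TOR on NPA, the 1 of 7 called where 22.1% of loci were (10.7% higher). Its libraries stood at 98.0, 99.4 and 84.1 CPM against 73.8, 63.3 and 72.4 CPM in Col-0 (log2 fold change 0.43 ± 0.10, edgeR adjusted p = 0.00407). On IAA 3 of 7 were called, where 12.6% of loci were (8.52% higher and 4.11% lower): IAA14 higher at 0.43 (adjusted p = 0.0193), IAA8 lower at -0.28 (0.0355) and IAA9 lower at -0.36 (0.0422). The IAA14 call was lost without replicate 2 of Col-0 (0.0675) or replicate 3 of amiR-TOR (0.0907). The calls of IAA8 and IAA9 were lost without the 5 libraries with many unmapped reads (0.140 and 0.0884), in 5 of 6 fits that left out 1 library for IAA8, all but that without replicate 2 of Col-0, and in 4 of 6 for IAA9, those without any 1 Col-0 library or replicate 2 of amiR-TOR. Without this last library IAA9 stood at -0.23 (adjusted p = 0.259). Of all loci called there, 67.4% were higher in amiR-TOR, against 55.4% with RLE scaling and 53.7% with DESeq2. On NPA 2 of 8 root markers were higher in amiR-TOR and 0 lower, and 2 of 6 shoot markers were lower and 0 higher. On IAA 3 root markers were higher and 0 lower. There 1 shoot marker was higher and 0 lower, with a median log2 fold change of 1.45 over the 6. The part of either tissue's RNA in these values was not tested.

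With estradiol in both genotypes, on NPA 5 of 7 were called, 2 higher and 3 lower, where 32.8% of loci were (17.6% higher and 15.3% lower). On IAA it was also 5 of 7, 2 higher and 3 lower, where 37.2% of loci were (19.5% higher and 17.7% lower). In that comparison 4 of 8 root markers were higher in amiR-TOR and 0 lower (median log2 fold change 0.52), with a summed level of 172 to 191 CPM against 109 to 115 CPM in Col-0, and 1 of 6 shoot markers was lower. On NPA 1 root marker was higher and 2 shoot markers were lower, and the part of either tissue's RNA was not tested. IAA14 on IAA stood at 128, 122 and 112 CPM in amiR-TOR against 87.1, 62.7 and 61.6 CPM in Col-0 (log2 fold change 0.78 ± 0.12, edgeR adjusted p = 3.53e-05). Without the 5 libraries with many unmapped reads, among them the 2 lower ones of Col-0, the value was 0.42 (adjusted p = 0.0494). IAA9 on IAA was lower in amiR-TOR by a log2 fold change of -0.50 ± 0.11 (adjusted p = 0.00150), at 1458, 1300.4 and 1212 CPM against 2046, 1740.4 and 1848 CPM. So on IAA with the microRNA induced, IAA14 was above, and IAA9 below, its level in Col-0, with no overlap in either gene. On IAA without estradiol both were also called, in the same directions (0.43 and -0.36). Genotype by estradiol on IAA was called for neither gene (IAA14 0.34, edgeR adjusted p = 0.208). With estradiol on NPA neither was called (IAA14 0.16, adjusted p = 0.341, and IAA9 -0.18, 0.242). IAA27 was lower on NPA (-0.87, adjusted p = 0.00139) and on IAA (-1.04, 0.000296). On IAA the value for IAA27 without the 5 libraries was -0.86 (0.0543). IAA7 was higher on IAA (0.52, adjusted p = 0.00104) and on NPA (0.32, 0.0347). IAA16 was lower on NPA (-0.59, adjusted p = 0.000682), IAA17 higher on NPA (0.30, 0.0236), and IAA8 lower on NPA (-0.23, 0.0495) and on IAA (-0.26, 0.0233). Leaving out single libraries ended the call of IAA8 on NPA in each of 6 fits, and on IAA in 4 of 6, those without replicate 1 or 3 of Col-0 or replicate 2 or 3 of amiR-TOR. On NPA the call of IAA7 ended without replicate 2 or 3 of either genotype, and that of IAA17 without replicate 3 of Col-0 or replicate 2 of amiR-TOR.

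Whether 1 effect differed with another factor was tested in 6 interactions for the 7 genes, 42 tests in all. In the reported edgeR fit 0 of the 42 were called and 7 had an unadjusted p under 0.05. Estimates lay between -0.76 and 0.43 on the log2 scale. Of all tested loci 11.2% were called for auxin by estradiol in Col-0, 9.57% for the same in amiR-TOR, 2.62% and 9.17% for genotype by estradiol on NPA and on IAA, 2.98% for genotype by auxin without estradiol and 0.719% for all 3 factors. The lowest adjusted p was that of IAA17 for genotype by auxin without estradiol, at -0.46 (95% interval -0.75 to -0.17, adjusted p = 0.0686). DESeq2 called it at -0.50 (0.0142), and edgeR with RLE scaling at -0.50 (0.0491). With a covariate for libraries with over 20% unmapped reads, edgeR called auxin by estradiol in Col-0 for IAA7 (-0.52, 0.0344) and IAA8 (-0.40, 0.0291). DESeq2 called IAA8 there at -0.32 (0.0494). The estimate of -0.76 was that of IAA27 for genotype by estradiol on IAA. DESeq2 called it at -0.79 (adjusted p = 0.0471), and edgeR with only the groups compared called it at -0.77 (0.0401). IAA14 stood higher on IAA than on NPA in every case. Its estimate for all 3 factors was 0.43 (95% interval -0.08 to 0.93, edgeR adjusted p = 0.546). By that test a difference in its response under the knock-down was not detected, and the interval still allows one. Genotype by auxin among the groups with estradiol was not tested. There the IAA14 response to IAA was 2.76 ± 0.13 (SE) in amiR-TOR and 2.14 ± 0.13 in Col-0. Without the 5 libraries with many unmapped reads the IAA14 estimate for all 3 factors was 0.07. For IAA9 the same estimate was -0.01 (95% interval -0.49 to 0.46).

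The order of the 8 groups differed from gene to gene. For IAA14 the order ran from amiR-TOR on IAA with estradiol (121 ± 7.69 CPM, SD, n = 3) and without (118 ± 10.3) through Col-0 on IAA (87.4 ± 6.65) and on IAA with estradiol (70.5 ± 14.4) to the 4 NPA groups, between 16.0 and 20.8 CPM. Only the steps after the second and the fourth of these groups showed no overlap between neighbours. For IAA9 the order of the IAA groups was the reverse by genotype, with Col-0 on IAA (1986 ± 103 CPM) and with estradiol (1878 ± 155) above amiR-TOR (1549 ± 255) and amiR-TOR with estradiol (1324 ± 124), and the same steps were free of overlap. For IAA7 all 7 pairs of neighbours overlapped, for IAA17 and IAA27 6 of 7, for IAA16 4 and for IAA8 3. Groups were ordered by these same means, and the same counts were not made over all tested loci. These steps are therefore a description and carry no test.

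Of the other parts of the pathway, most other Aux/IAA genes also rose. In Col-0 without estradiol 16 of 21 tested genes among the other 22 Aux/IAA loci were higher with IAA and 1 lower, led by IAA29 (log2 fold change 7.90) and IAA5 (7.86), and their median was 2.16, against -0.04 over all tested loci, of which 31.3% were higher and 32% lower. The counts that follow are for the same comparison and stand against the same shares. Among 6 TIR1/AFB receptors 1 was higher, TIR1 (0.43), and 2 were lower, of which AFB2 fell most (-0.70), and the median over the 6 was -0.14. Of 5 activator ARFs 3 rose, including ARF19 (2.32), a partner of IAA14, and ARF5 (1.18), and of 5 TOPLESS co-repressors 3 rose, including TPR3 (0.62) and TPR2 (0.45), and 0 of either list fell (medians 0.47 and 0.25). The 4 genes listed as acting downstream of IAA14 and its ARFs in lateral root initiation (LBD16, LBD18, LBD29 and GATA23) all rose, with LBD18 at 7.93 and LBD29 at 7.65 on the log2 scale.

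IAA14, IAA17 and IAA7 each lie near another Aux/IAA gene on the opposite strand, with no protein-coding gene between. The gaps in TAIR10.1 are 10732 bases from IAA14 to IAA1, 6388 from IAA17 to IAA3 and 12510 from IAA7 to IAA2. IAA1 went from 9.15 ± 1.57 CPM in Col-0 on NPA to 90.1 ± 6.92 on IAA (log2 fold change 3.30), above IAA14 at 2.32. IAA3 rose by 2.16 where IAA17 rose by 0.54, and IAA2 by 2.22 where IAA7 rose by 0.37. The differences between neighbours were not tested.

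The promoters of the 3 genes that rose in every case are shown because they moved together. They are the 250 bases before the gene start in TAIR10.1, from RefSeq, 5′ to 3′ on the gene's strand, with matches to TGTCTC or TGTCGG in capitals; both motifs are known as binding sequences of ARFs and were searched on both strands, and they do not overlap.
IAA14 (chr4:8350264-8350513, minus strand): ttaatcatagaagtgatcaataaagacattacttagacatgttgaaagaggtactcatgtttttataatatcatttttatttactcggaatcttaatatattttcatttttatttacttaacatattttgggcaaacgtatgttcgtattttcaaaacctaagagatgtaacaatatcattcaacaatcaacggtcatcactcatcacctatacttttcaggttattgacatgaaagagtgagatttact
IAA9 (chr5:26253158-26253407, plus strand): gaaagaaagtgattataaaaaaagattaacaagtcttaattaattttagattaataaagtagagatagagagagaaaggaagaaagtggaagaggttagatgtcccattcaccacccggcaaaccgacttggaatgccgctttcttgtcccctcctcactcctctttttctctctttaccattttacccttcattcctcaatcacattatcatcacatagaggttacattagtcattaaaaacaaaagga
IAA8 (chr2:9636096-9636345, plus strand): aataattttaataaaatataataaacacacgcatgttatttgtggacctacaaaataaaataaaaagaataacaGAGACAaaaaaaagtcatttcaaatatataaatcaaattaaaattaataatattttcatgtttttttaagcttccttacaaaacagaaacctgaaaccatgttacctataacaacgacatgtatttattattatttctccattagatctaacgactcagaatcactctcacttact
TGTCTC was found in 1 of the 7 promoters, that of IAA8, and in 10.9% of 27443 promoters of the same length. TGTCGG was found in 2 of the 7, IAA16 and IAA27, and in 4.16% of all. Either was found in 3 of the 7 and in 14.7% of all. The promoters of IAA14 and IAA9 held neither in this window.

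Reads on the strand opposite to the gene made up a larger share at the IAA14 locus than at the other 6. In Col-0 on NPA 231 of 1399 reads of both strands lay there, or 16.5% (exact 95% interval 14.6% to 18.6%, counting error only), and on IAA 3.59% (3.13% to 4.09%). In the other 6 genes the share lay between 0.161% and 2.45% in any group. The opposite-strand level of IAA14 was 3.17, 3.06 and 4.40 CPM on NPA and 2.56, 2.27 and 4.08 CPM on IAA in Col-0, so these groups overlapped while the level on the gene's own strand did not. An annotated non-coding RNA, AT4G14548, lies 57 bases from IAA14 on the opposite strand and averaged between 4.59 and 6.83 CPM in the 8 groups. Its part in these reads was not tested. All values above are from the gene's own strand, and counts taken without regard to strand ended 1 call among the 7 genes, that of IAA7 between the genotypes on NPA with estradiol.

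**Figure D5:**
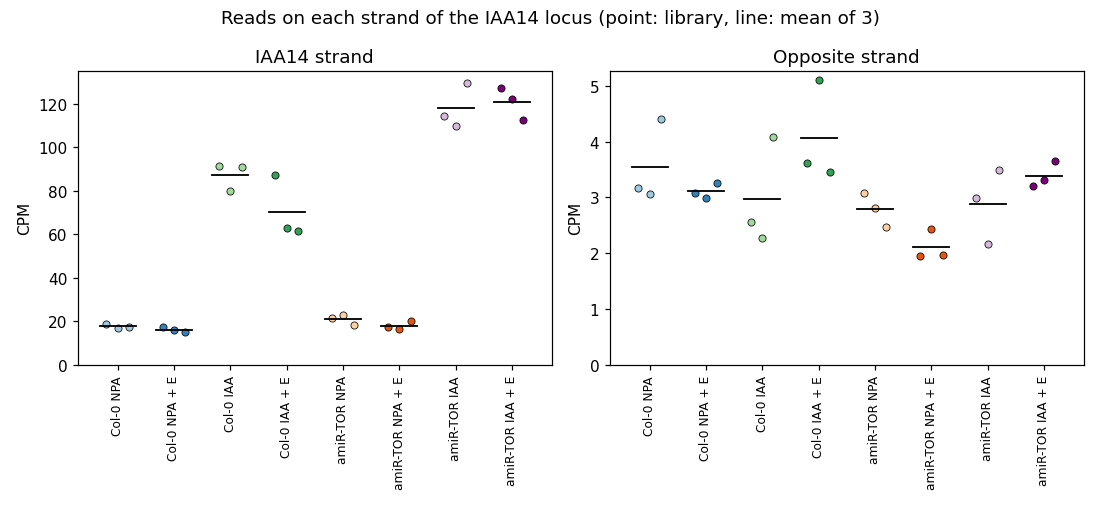
CPM on the IAA14 strand (left) and on the opposite strand (right) in each library, with groups on the horizontal axis, points for libraries and lines for means of 3. The left panel separates IAA from NPA libraries, and the right panel stays between 1.94 and 5.11 CPM throughout.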

How the data were processed

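Raw read counts per locus were deposited by the authors in 1 table for each library, both regardless of strand and by strand; per the submitters' processing notes, STAR 2.5.2b, DESeq2 and the TAIR10 build were used. The strand with most reads was used here; it held 95.4% to 96.3% of strand-assigned reads. The 4 summary lines at the top of each table were left out; ambiguous reads were at most 0.835% of a library. Names, sequences and positions come from RefSeq TAIR10.1 by locus tag, since the tables hold no coordinates; 32548 of 32833 loci matched.

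The counts were fitted in edgeR 4.0.16 (R 4.3.3): filterByExpr, which left 21290 loci, TMM scaling (factors 0.957 to 1.04), and 1 quasi-likelihood fit of 24 libraries with 1 mean for each group and robust dispersions (common biological coefficient of variation 0.143). A gene was called at a Benjamini-Hochberg adjusted p under 0.05 over all tested loci of a comparison. SE is the log2 fold change divided by the square root of F. CPM use TMM-scaled library sizes. DESeq2 1.42.0 served as an alternative, and the fit was tested on simulated data. Each pair of replicates of a group differed beyond counting noise (chi-square of at least 4.73 per degree of freedom).

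The members, lists and comparisons were chosen with earlier results of these data known, and the 2 comparisons of the genotypes with estradiol were added after the data were seen. All 7 members were named, with the 2 genes of each list with the largest called change in Col-0 without estradiol, the neighbouring Aux/IAA genes, TOR, and the 2 loci most correlated with each member. Precision is limited by 3 libraries per group. Equal replicate numbers gave no sign of paired libraries. Alternatives were RLE scaling, no filter, counts regardless of strand, a replicate block, a covariate for or the removal of libraries with over 20% unmapped reads, fitting only the groups compared, DESeq2, and leaving out each library. In the treatment protocol of the labels, a closing passage on other plates and times was not used.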

Additional observations from a re-analysis of the deposited data

How the results depend on the processing

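The 7 genes gave 1001 values under 8 alternatives, of which 948 kept their direction and their side of the threshold, 23 lost the call, 12 gained one and 18 changed sign, none of these 18 called with either sign. IAA14, IAA9 and IAA8 stayed called for IAA against NPA in all 4 combinations under these 8 and in every fit without 1 library. Equal replicate numbers gave no sign of paired libraries. Same-numbered libraries of different groups had correlations of deviations between -0.379 and 0.310 (median 0.0021). Differently numbered ones had correlations between -0.337 and 0.376 (median -0.0073). The replicate block changed no call among the 7 genes, and IAA14 in Col-0 stood at 2.32 with it.

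Of the 18 sign changes 13 came without the 5 libraries with many unmapped reads. For estradiol in Col-0 on IAA these were IAA14 (0.042), IAA9 (0.063) and IAA27 (-0.026), and in amiR-TOR on IAA IAA14 (-0.0070). For genotype on IAA they were IAA17 without (0.0027) and with estradiol (0.042). For interactions they were IAA14 in auxin by estradiol in Col-0 (0.14), IAA14 (-0.049) and IAA8 (-0.14) in genotype by estradiol on IAA, IAA27 in genotype by auxin (-0.015), and IAA16 (-0.0021), IAA8 (-0.033) and IAA27 (0.034) for all 3 factors. The other 5 were IAA7 in genotype by estradiol on NPA with counts regardless of strand (-0.025), with the covariate (-0.010) and with only the groups compared (-0.063), and IAA9 for all 3 factors with counts regardless of strand (0.015) and with the replicate block (0.00024). Leaving out 1 library changed the sign of 41 values, none called, in 16 results. Their ranges were -0.12 to 0.0057 for IAA17 with IAA in amiR-TOR with estradiol; for estradiol -0.022 to 0.077 (IAA8) and -0.0084 to 0.081 (IAA9) in Col-0 on NPA, -0.0054 to 0.19 (IAA27) in Col-0 on IAA and -0.016 to 0.10 (IAA14) in amiR-TOR on IAA; and for genotype on IAA -0.052 to 0.025 (IAA16) and -0.10 to 0.061 (IAA17) without and -0.065 to 0.059 (IAA17) with estradiol. For auxin by estradiol they were -0.23 to 0.023 (IAA27, Col-0) and -0.14 to 0.035 (IAA7, amiR-TOR), for genotype by estradiol -0.072 to 0.11 (IAA7, NPA), -0.073 to 0.097 (IAA17, IAA) and -0.050 to 0.092 (IAA8, IAA), for genotype by auxin -0.013 to 0.34 (IAA27), and for all 3 factors -0.066 to 0.18 (IAA16) and -0.15 to 0.056 (IAA9).

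Numbers of the 7 genes called moved as follows, with the reported number first. For IAA against NPA in Col-0 it was 7, and 5 without the 5 libraries, and with estradiol 6, 5 without the filter or with the covariate and 4 without the 5 libraries. For estradiol in Col-0 on IAA it was 0, and 1 with DESeq2. For estradiol in amiR-TOR on IAA it was 2, and 1 without the filter, without the 5 libraries or with only the groups compared, and 3 with DESeq2. For genotype with estradiol it was 5 on NPA, and 4 with RLE scaling, without the filter, with counts regardless of strand or with only the groups compared, and on IAA 5, and 4 without the 5 libraries or with only the groups compared. For genotype without estradiol it was 1 on NPA, 3 with the covariate and 2 with DESeq2, and on IAA 3, and 1 without the filter, with the covariate, without the 5 libraries or with only the groups compared. For the interactions it was 0: auxin by estradiol in Col-0 gave 2 with the covariate and 1 with DESeq2, genotype by estradiol on IAA 1 with only the groups compared and 1 with DESeq2, and genotype by auxin 1 with RLE scaling and 1 with DESeq2. Leaving out 1 library gave 5 to 7 and 4 to 6 for IAA against NPA in Col-0 without and with estradiol, 0 to 1 for estradiol in Col-0 on NPA and on IAA, 0 to 2 in amiR-TOR on IAA, 1 to 3 and 1 to 2 for genotype without estradiol on NPA and IAA, 2 to 4 and 4 to 5 with estradiol on NPA and IAA (reported: 5 and 5), 0 to 2 for auxin by estradiol in Col-0, and 0 to 1 for genotype by estradiol on IAA and genotype by auxin. Calls gained this way were IAA17 (adjusted p = 0.0417) and IAA9 (0.0293) for estradiol in amiR-TOR without its IAA replicate 2, IAA16 (0.0451) between the genotypes on NPA without Col-0 replicate 1, IAA7 (0.0427) and IAA27 (0.0404) there without amiR-TOR replicate 3, and, for interactions, IAA7 (0.0363) and IAA8 (0.0354) without Col-0 IAA replicate 2, IAA14 (0.0309) without Col-0 IAA estradiol replicate 1 and IAA17 (0.0434) without Col-0 NPA replicate 1.

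Of all loci, estradiol in Col-0 on IAA called 218, 3 without the 5 libraries, 68 with only the groups compared and 572 with DESeq2 (58 to 746 leaving out 1 library). Leaving out 1 library gave 2043 to 5294 for estradiol in Col-0 on NPA (4616), 2370 to 3859 in amiR-TOR on IAA (4021), and 2853 to 4709 and 1494 to 2577 for genotype without estradiol on NPA (4714) and IAA (2688). Auxin by estradiol called 2387 in Col-0, 1424 without the 5 libraries, 1533 with only the groups compared and 1208 to 3608 leaving out 1, and in amiR-TOR 2038 (1265 to 2119). Genotype by estradiol called 558 on NPA, 878 without the 5 libraries, 1065 with DESeq2 and 294 to 634 leaving out 1, and on IAA 1952, 1071 without the 5, 1206 with only the groups compared and 1135 to 1956 leaving out 1. Genotype by auxin called 634, 1100 with the covariate, 1270 with DESeq2 and 153 to 1400 leaving out 1; 47.5% of these were higher, against 34.8% with RLE scaling. All 3 factors called 153, 359 with DESeq2 and 89 to 238 leaving out 1. The causes were not tested. With 3 libraries per group, a coefficient of variation of 0.143 limits which small changes can be seen.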

Other observations

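For each of the 7 genes, the 2 loci outside the set whose level followed it most closely were found by Pearson r of log2(CPM + 1) over the 24 libraries, among the 16139 tested loci with a mean of at least 5 CPM. The r are descriptions without a test, since the libraries share the step between NPA and IAA. IAA14 was followed most closely by PP2-A5 (r = 0.99, group means from 0.449 to 36.4 CPM) and by LBD19 (r = 0.99), a gene of the LBD transcription factor family, whose group means ran from 0.0367 to 37.2 CPM. IAA9 was followed by AT4G22620 (r = 0.99) and AT3G30380 (r = 0.99), and AT3G30380 was also the closest to IAA8 (r = 0.99), followed by AT1G66480 (r = 0.98). IAA16 was followed by AT1G12250 (r = 0.96) and AT3G61260 (r = 0.96), whose group means ran from 94.7 to 464 CPM. IAA27 was followed by AT2G01990 (r = 0.93) and AT4G00880 (r = 0.93). The closest loci of the remaining pair were less alike, at 0.83 for IAA7 (NRPB11, a subunit of RNA polymerase II, and AT5G15265) and at 0.76 and 0.74 for IAA17 (NUDT21 and AT1G76010).

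IAA16 and IAA27, which both fell with IAA, had an r of 0.66 with each other over the 24 libraries, and IAA7 and IAA27 one of -0.78.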
